A study of Rattus norvegicus with 5 samples.

Results

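The miR-17/92 and miR-106b/25 clusters are groups of microRNA (miRNA) hairpins, each transcribed as a common precursor. Their 9 guide strands, the strands usually loaded into the silencing complex, were followed in the rat heart under pressure load. The load was set by transverse aortic constriction (TAC), a surgical narrowing of the aortic arch between the carotid arteries. The members were taken by probe name and are 9 of the 678 rat miRNA probes of the array: rno-miR-17-5p, rno-miR-18a, rno-miR-19a, rno-miR-20a, rno-miR-19b and rno-miR-92a of the miR-17 to miR-92a cluster, and rno-miR-106b, rno-miR-93 and rno-miR-25 of the other. The prefix rno marks rat and is left out in most sentences below. RNA came from the hearts of male SD rats, 6 to 8 weeks old and with a weight of 200 to 300 g, and was labelled with the dye Hy3. There were 5 arrays, each hybridized with RNA from the hearts of 5 rats: 1 each for TAC days 5, 10, 15 and 20 after surgery, and 1 for sham surgery, which left out the constriction. The sham sample is labelled as day 5, although the header of its raw column carries day 15. Since a group is a single array of pooled hearts, the spread between rats is unknown, and each SD or standard error (SE) below covers only the 4 spots of a probe.

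As background, MYC and E2F factors drive transcription of the miR-17/92 cluster, and the miR-106b/25 hairpins lie within Mcm7, the gene of a DNA replication helicase subunit. Members with the miR-17 seed repress cell cycle brakes such as p21, and miR-18a and miR-19 are known to repress CTGF and thrombospondin-1, which act in matrix deposition. In mice the miR-17/92 cluster promotes cardiomyocyte proliferation, miR-92a restrains vessel growth, and miR-25 has been reported to repress the calcium pump SERCA2a.

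The 9 mature sequences fall into 4 seed groups, and the groups cut across the clusters. They are shown because a seed (bases 2 to 8, in capitals) sets which messages a miRNA can pair with, and because near-identical members can share signal on an array. All 9 names matched RefSeq entries (build GRCr8). The first 4 below carry the miR-17 seed, the next the miR-18 seed, the following pair the miR-19 seed and the last pair the miR-92 seed.
rno-miR-17-5p: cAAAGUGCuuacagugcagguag
rno-miR-20a: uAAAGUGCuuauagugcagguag
rno-miR-106b: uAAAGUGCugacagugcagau
rno-miR-93: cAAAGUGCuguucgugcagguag
rno-miR-18a: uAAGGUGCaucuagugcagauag
rno-miR-19a: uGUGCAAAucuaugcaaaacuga
rno-miR-19b: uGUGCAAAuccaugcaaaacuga
rno-miR-92a: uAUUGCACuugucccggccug
rno-miR-25: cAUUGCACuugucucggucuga

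Counted from the 5′ end, miR-17-5p and miR-20a differ by C1U and C12U, and miR-19a and miR-19b by U11C alone. MiR-106b differs from miR-17-5p at 3 of 21 compared bases, miR-93 from miR-17-5p at 4 of 23, and miR-25 from miR-92a at 3 of 21. The probe sequences of the array were not used here, so how far these probes share signal is not known. The miR-17 to miR-92a hairpins span 785 bases at chr15:98587848-98588632 on the plus strand (GRCr8). The 3 hairpins of the miR-106b/25 cluster span 494 bases at chr12:22156641-22157134 on the minus strand, inside the bounds of Mcm7. Mature miR-17-5p, miR-19b and miR-92a are also made from a cluster on the X chromosome, at chrX:137342777-137343647, so their probes read the sum of 2 loci.

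**Figure D1:**
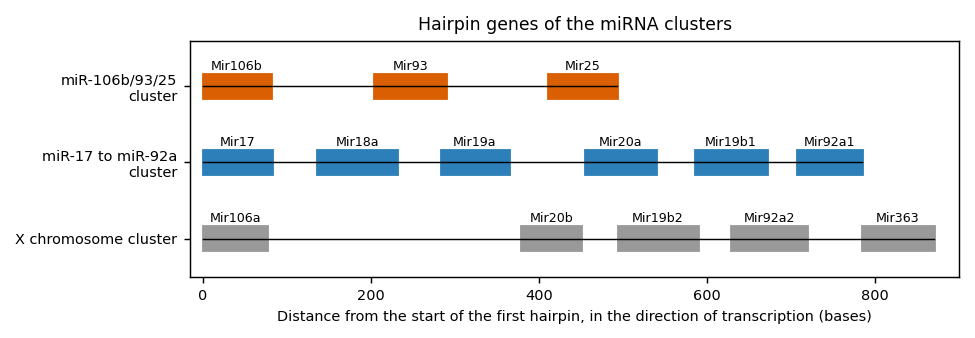
Hairpin genes of the miR-106b/93/25 cluster (orange), the miR-17 to miR-92a cluster (blue) and the related X chromosome cluster (grey), drawn to scale from RefSeq annotation. The x axis is the distance in bases from the start of the first hairpin. The clusters hold 3, 6 and 5 hairpins within 494, 785 and 871 bases.

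Signals are the authors' background-subtracted intensities, averaged over the 4 spots of a probe. A probe counted as above the floor when this mean exceeded the median plus 3 scaled median absolute deviations (MAD) over empty and negative-control spots of the same array. The floors were 72.1, 46.4, 46.4 and 28.1 units on TAC days 5, 10, 15 and 20 and 30.6 units on sham, and the median background was 206, 152, 144, 101 and 104 units. Of the 678 probes, between 162 (TAC day 5) and 257 (TAC day 20) were above the floor on an array, and the sham array had 236. All 6 cardiomyocyte markers examined (miR-1, miR-133a, miR-133b, miR-208, miR-208b-3p and miR-499) were above it on all 5 arrays, with signals of at least 1043 units on TAC day 5.

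The log2 ratios are of TAC over sham after quantile scaling over the rat miRNA spots. They depend on that scaling: with scaling to the synthetic spike-in controls the median log2 ratio of all miRNAs was 2.50, 2.03, 0.91 and 0.50 on TAC days 5, 10, 15 and 20, and with quantile scaling it was 0.56, -0.0033, -0.0069 and -0.07. Of 25 member ratios measured above the floor on both arrays, 18 were below 0, and with spike-in scaling all 25 were above 0. Every direction given below is therefore relative to all 678 rat miRNA probes, most of them below the floor. It is not relative to the measured miRNAs alone. On TAC day 5 a log2 ratio between 0 and 0.56 is above sham but below the median of the measured miRNAs. The slide also carries each probe in 2 sets of blocks, 1 to 18 and 19 to 36. The second set was the brighter one, with a median log2 gap of 0.19, 0.83, 0.53 and 0.31 on TAC days 5, 10, 15 and 20, against 0.13 on sham, over 143 miRNAs above the floor on all arrays.

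Of the 9 members, 4 were above the floor on TAC day 5, 7 on each later TAC day and 7 on sham. Rno-miR-18a and rno-miR-92a were below it on all 5 arrays. The signal of rno-miR-18a was -86, -58.5, -64.5 and -35.5 units on the TAC arrays in order of day and -29.5 units on sham. For rno-miR-92a it was -41.8, -48, -71 and -25.8 units on the TAC arrays and -32.3 units on sham. Neither probe gives a fold change, and their neighbours in the same precursor, miR-17-5p, miR-19a, miR-20a and miR-19b, were all measured on sham.

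On TAC day 5 the miR-106b/25 cluster read lower than on sham in all 3 members, relative to the other rat miRNAs. Of these, miR-93 and miR-25 were below the floor on TAC day 5. Of 236 miRNAs above the floor on sham, 152 were also above it on TAC day 5, beside 4 of 7 members. Falling below the floor was thus common on this array and not particular to the members. The member rno-miR-106b, which shares the miR-17 seed and represses p21, had a signal of 202 ± 67.6 units on TAC day 5, against 1214 ± 57.8 units on sham (SD over 4 spots). All 4 of its TAC day 5 spots lay below all 4 sham spots. Its log2 ratio was -1.32 ± 0.16 (SE over spots), 2.49-fold lower, and with spike-in scaling it was 0.78, on the other side of sham. With the same seed, rno-miR-93 had -40.5 ± 30.4 units on TAC day 5 and 545 ± 43.4 units on sham. Being above the floor on sham alone, it was at least 2.07-fold lower on TAC day 5. That bound was 1.80-fold with median scaling, and spike-in scaling removed it. With the miR-92 seed, rno-miR-25 had -60.8 ± 16.2 units on TAC day 5 and 250.5 ± 51.2 units on sham, at least 1.24-fold lower, and with median or spike-in scaling no bound remained. A bound compares the sham level with the dimmest probe above the floor on TAC day 5, or with the probe's own level where that is higher. In bulk RNA of this kind fewer cells of a type and less RNA per cell cannot be told apart.

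The miR-17 to miR-92a cluster did not read in 1 direction on TAC day 5. The first of the cluster, rno-miR-17-5p, had 310 ± 68.7 units on TAC day 5 and 396.5 ± 14.6 units on sham, yet its log2 ratio after scaling was 0.51 ± 0.14. With quantile scaling over all probes that ratio of miR-17-5p was -0.40, so its direction rests on the scaling. The member rno-miR-20a, 2 bases different from miR-17-5p, had 36.5 ± 107 units on TAC day 5 and 802.5 ± 74.6 units on sham. Its TAC day 5 spots were -123, 73, 86 and 110 units, so only the lowest lay below the floor of 72.1 units. By its mean, miR-20a was below the floor and at least 2.86-fold lower. That bound was 2.48-fold with median scaling, and spike-in scaling removed it. Rno-miR-19b had 444.5 ± 36 units on TAC day 5 and 1777.5 ± 137 units on sham, a log2 ratio of -0.92 ± 0.06 (0.91 with spike-in scaling). Rno-miR-19a, 1 base different from miR-19b, had 226.5 ± 64.0 units on TAC day 5 and 501 ± 26.7 units on sham, a log2 ratio of -0.04 ± 0.14, with overlapping spots on the scaled values.

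Among the 4 members above the floor on both arrays on day 5, 0 read 2-fold or more higher and 1 read 2-fold or more lower, miR-106b. Over all 152 miRNAs so measured, 40.8% were at least 2-fold above sham and 26.3% at least 2-fold below it. The median log2 ratio of these 4 members was -0.48, beside 0.56 over the 152 miRNAs. Scaled spots lay wholly below sham for miR-19b and miR-106b and wholly above sham for miR-17-5p, and 27.6% and 51.3% of the 152 miRNAs did so. These shares show how common such differences were on this array.

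**Figure D2:**
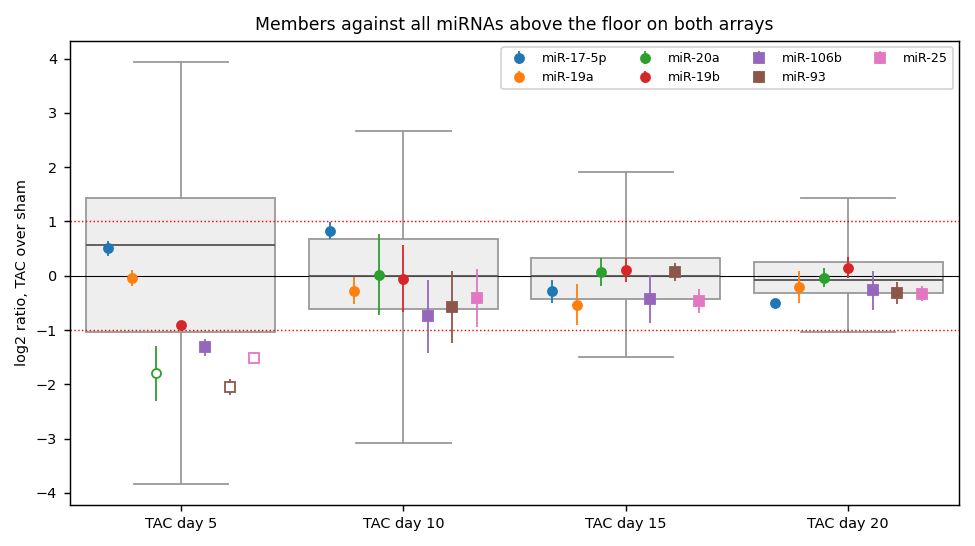
Log2 ratio of TAC over sham for the 7 members above the floor on sham (points, ± SE over 4 spots) on each TAC day, over boxes of all miRNAs above the floor on both arrays (box, quartiles; whiskers, full range). Circles are the miR-17 to miR-92a cluster and squares the miR-106b/25 cluster; open symbols were below the floor on TAC day 5, and red lines mark 2-fold. Members above the floor on both arrays spread from -1.32 to 0.51 on day 5 and from -0.50 to 0.15 on day 20 with quantile scaling; all measured ratios lie above 0 with spike-in scaling.

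Markers of other cell types also had lower signals on the TAC day 5 array. Both erythroid markers, miR-144 and miR-451, read 2-fold or more lower after quantile scaling, with a summed signal of 1144 units on TAC day 5 and 19712.5 units on sham. Both strands of the endothelial miR-126 did so, with a sum of 3769.5 units on TAC day 5 and 54797 units on sham. Of the 4 leukocyte markers (miR-142-3p, miR-142-5p, miR-223 and miR-150), 3 were above the floor on both arrays and 1 read 2-fold or more lower, and their sum was 4950 units on TAC day 5 and 10765 units on sham. On days 10, 15 and 20 the erythroid sum was 5942, 20050 and 18683 units, and the endothelial sum 41314, 45699 and 49594.5 units. Both day 10 sums join unlike block sets. MiR-126 had 8672 units in blocks 1 to 18 and 65385 units in blocks 19 to 36, where its 2 spots were saturated. In the same block sets miR-451 had 964 and 9744.5 units, and miR-144 had 280 and 895 units. The smooth muscle pair miR-143 and miR-145 summed to 4252 units on TAC day 5 and 37736 units on sham, and 1 of them read 2-fold or more lower. On TAC day 5 the dimmest leukocyte marker had 10.75 units and was the only 1 of these 10 markers below the floor. The 6 cardiomyocyte markers summed to 106131 units on TAC day 5 and 152647 units on sham, yet their median log2 ratio after quantile scaling was 0.37. They did not move together: 2 of them, miR-1 (1.12) and miR-133a (1.25), read 2-fold or more higher. In the other direction 1 read 2-fold or more lower, miR-499, with a log2 level of 9.87 on TAC day 5 and 12.37 on sham. The spots of miR-499 spread widely, from -50 to 1874 units on TAC day 5 and from 2126 to 13416 units on sham. These cell types' part in the members' values was not tested.

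On TAC day 10 the mean of the 4 spots hid a split between the block sets. In blocks 1 to 18 miR-106b had 161 units, in blocks 19 to 36 it had 1712.5 units, and on sham it had 1184 and 1244 units in the same block sets. MiR-93 had 20 and 756 units on TAC day 10, against 578 and 512.5 units on sham. MiR-25 had -21 and 313.5 units on TAC day 10, against 207 and 294 units on sham. All 3 members of the miR-106b/25 cluster thus read below sham in the one block set and above it in the other.

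Members of the miR-17 to miR-92a cluster split in the same way for miR-20a and miR-19b and less for miR-19a and miR-17-5p. MiR-20a had 161 units in blocks 1 to 18 and 2074.5 units in blocks 19 to 36 on TAC day 10, against 850.5 and 754.5 units on sham. MiR-19b had 680.5 and 3334 units on TAC day 10, against 1662 and 1893 units on sham. MiR-19a had 208.5 and 413.5 units on TAC day 10, against 485 and 517 units on sham. MiR-17-5p, with 587 and 894.5 units on TAC day 10 and 391 and 402 units on sham, was the member above sham in both block sets.

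On the log2 scale the day 10 gap between block sets was 2.55 for miR-20a, 2.25 for miR-106b, 2.25 for miR-93, 2.08 for miR-19b and 1.83 for miR-25, but 0.46 for miR-19a and 0.35 for miR-17-5p. Over the 143 miRNAs above the floor on all arrays the gap had a median of 0.83 and quartiles of 0.31 and 1.65, and 62 of them had a gap of 1 or more. The 5 members with a large gap therefore lay above the upper quartile of a spread common to the array. In blocks 1 to 18, 5 of 7 members read 2-fold or more lower (34% of 197 miRNAs) and 0 read higher (11.7%). In blocks 19 to 36, 0 of 7 read 2-fold or more lower (9.64%) and 1 read higher, miR-20a at 1.39 (25.4%).

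**Figure D3:**
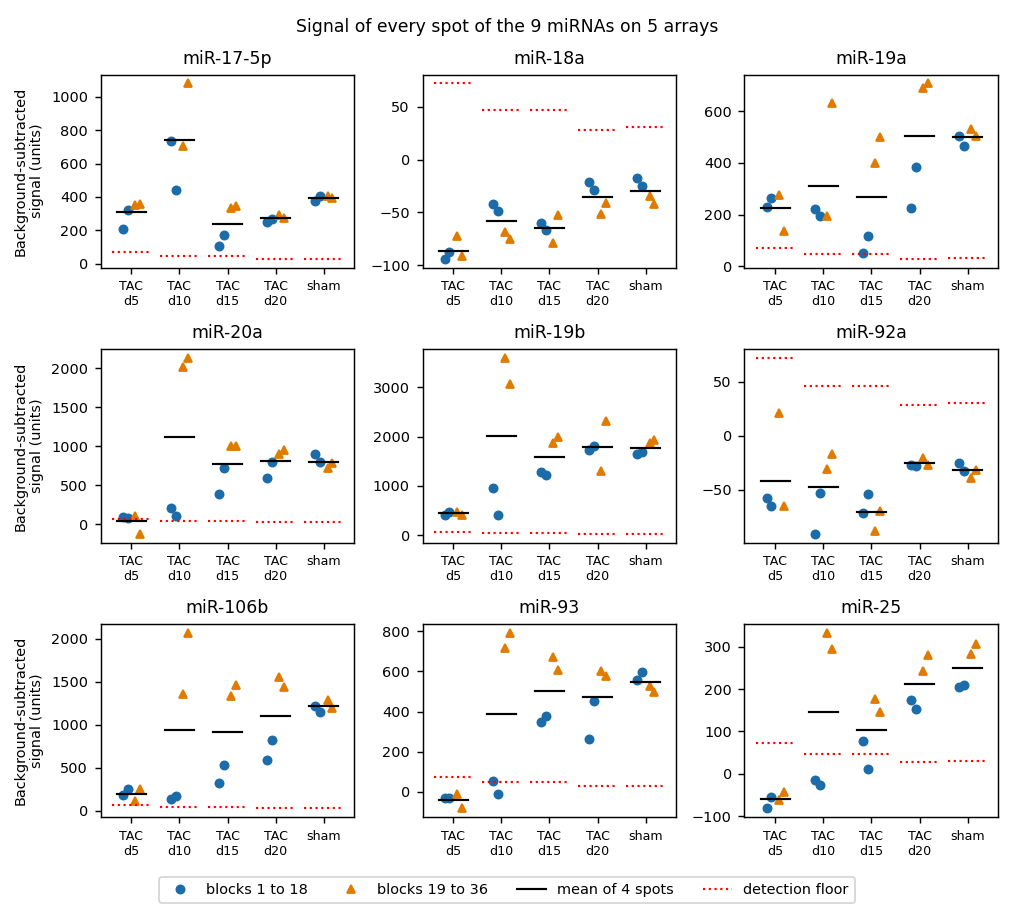
Background-subtracted signal of each spot of the 9 miRNAs (y axis, units; the scale differs between panels) on the TAC arrays by day and on sham. Circles are spots in blocks 1 to 18, triangles spots in blocks 19 to 36, black lines the mean of 4 spots and red dotted lines the detection floor. On TAC day 10 the spots of miR-20a, miR-19b, miR-106b, miR-93 and miR-25 separate by block set, whereas sham spots lie close together; miR-18a and miR-92a stay below the floor.

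Averaged over all 4 spots, the day 10 ratios of the members carried a large technical error. MiR-106b averaged 937 ± 942 units on TAC day 10, a log2 ratio of -0.75 ± 0.67, and miR-93 averaged 388 ± 427 units, a log2 ratio of -0.58 ± 0.66. MiR-25 read -0.41 ± 0.53, miR-20a 0.02 ± 0.75, miR-19b -0.05 ± 0.62 and miR-19a -0.27 ± 0.26. For these 6 members the TAC day 10 spots overlapped the sham spots, so no difference was detectable at this technical error. MiR-17-5p averaged 741 ± 263 units on TAC day 10, and its log2 ratio of 0.83 ± 0.15 ranged from 0.47 to 2.90 over the alternatives, above sham under each of the 9 run. Its 4 spots lay above all sham spots, as did those of 29.4% of 197 miRNAs, while 0 of 7 members and 10.2% of the 197 had all spots below sham. Of 7 members, 0 read 2-fold or more higher and 0 lower, beside 13.7% and 15.7% of 197 miRNAs. The members' median was -0.27, beside -0.0033 over the 197.

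On TAC days 15 and 20 the members lay within 2-fold of sham. On day 15 miR-106b had 912 ± 570.0 units, miR-93 501 ± 162 units and miR-25 103 ± 73.4 units, with log2 ratios of -0.43 ± 0.44, 0.07 ± 0.16 and -0.47 ± 0.22. On day 20 they had 1100.5 ± 470.3, 473 ± 155 and 213 ± 59.2 units, with log2 ratios of -0.27 ± 0.35, -0.31 ± 0.20 and -0.33 ± 0.14. The TAC spots of these 3 members overlapped the sham spots on both days. Ratios below 0 turned positive with spike-in scaling.

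Of the miR-17 to miR-92a cluster, miR-20a had 777 units on TAC day 15, 809.8 units on TAC day 20 and 802.5 units on sham, with log2 ratios of 0.07 ± 0.25 and -0.03 ± 0.18. MiR-19b had 1592 and 1784 units on TAC days 15 and 20 and 1777.5 units on sham, with log2 ratios of 0.10 ± 0.22 and 0.15 ± 0.20. MiR-19a had 267.5 and 502 units on TAC days 15 and 20 and 501 units on sham, with log2 ratios of -0.53 ± 0.37 and -0.20 ± 0.29. These 3 also overlapped sham on both days. MiR-17-5p had 239 ± 118 units on TAC day 15 and 272 ± 17.0 units on TAC day 20, against 396.5 units on sham. Its day 15 spots overlapped sham, while all 4 day 20 spots lay below all 4 sham spots, with a log2 ratio of -0.50 ± 0.03 (0.18 with spike-in scaling). On day 15, 0 of 7 members lay wholly above sham and 0 wholly below, beside 21.9% and 3.48% of 201 miRNAs. On day 20, 0 of 7 lay wholly above and 1 wholly below, beside 19.5% and 14.7% of 231 miRNAs.

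Of the 7 members, 0 were 2-fold or more higher or lower on either day. Over all miRNAs 4.98% read higher and 2.49% lower on day 15 (n = 201), and 1.3% read higher and 0.433% lower on day 20 (n = 231). The members' median log2 ratio was -0.29 on day 15, beside -0.0069 over all miRNAs, and -0.27 on day 20, beside -0.07. Within the block sets, 7 of 7 members read below sham in blocks 1 to 18 on day 15, beside 62.7% of all miRNAs, and 1 of 7 in blocks 19 to 36, beside 17.4%. On day 20 the counts were 6 of 7 (64.5%) and 2 of 7 (42.0%).

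The clusters were then set against each other, which asks whether the miR-106b/25 hairpins and the miR-17 to miR-92a hairpins read alike after constriction. The mean log2 ratio of the miR-106b/25 cluster minus that of the miR-17 to miR-92a cluster does not change when a constant is added to all log2 values of an array. On TAC days 5, 10, 15 and 20 it was -1.17, -0.71, -0.11 and -0.16. Day 5 rests on miR-106b alone (-1.32) against miR-17-5p, miR-19a and miR-19b (mean -0.15). MiR-93, miR-25 and miR-20a, which have only bounds on day 5, are not in it. The day 5 difference was -0.99 with median or spike-in scaling, which each subtract a constant per array and so give the same difference by construction. It was -1.04 in blocks 1 to 18 and -1.29 in blocks 19 to 36. The SD of this difference over spots was 0.34.

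From day 10 on, the cluster difference was smaller than its SD over single spots. That SD is not reduced for the averaging of 4 spots, so it is wider than the error of the means. On day 10 it also includes the gap between block sets, and whether the clusters differed then was not tested. On day 10 the means were -0.58 for the miR-106b/25 cluster (n = 3) and 0.13 for the miR-17 to miR-92a cluster (n = 4), and the difference of -0.71 compares with an SD over spots of 0.88. It was -1.06 in blocks 1 to 18, -0.37 in blocks 19 to 36, and -2.45 with plain background subtraction. On days 15 and 20 the SDs over spots were 0.44 and 0.35, and the clusters were not distinguishable at that error. Members of a cluster share a precursor and are no replicates of a condition, so no test over members was made.

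**Figure D4:**
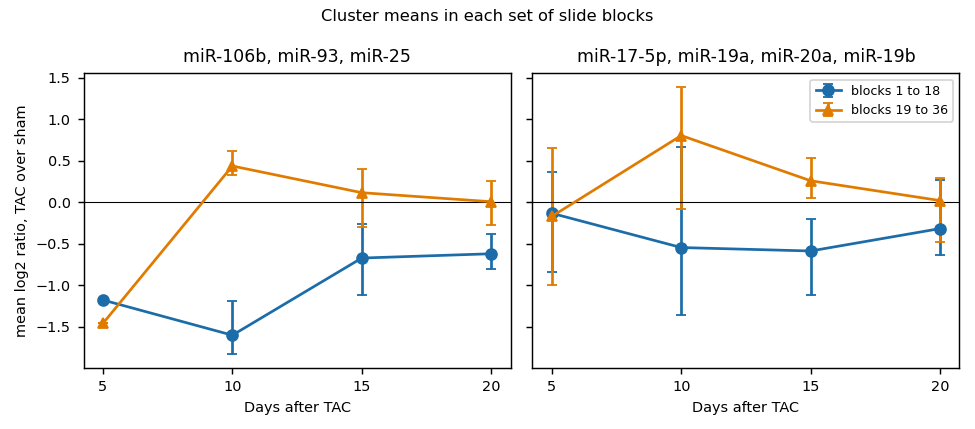
Mean log2 ratio of TAC over sham (y axis) against days after TAC (x axis) for the miR-106b/25 members (left) and the miR-17 to miR-92a members (right) above the floor on both arrays, in each block set; bars run from the lowest to the highest member. On day 5 the left panel holds miR-106b alone, at -1.18 and -1.46, and the right panel lacks miR-20a. On day 10 the miR-106b/25 block sets lie at -1.60 and 0.44, for quantile scaling.

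Within a seed group, members read differently on TAC day 5 with quantile scaling. With the miR-17 seed, miR-20a, miR-106b and miR-93 were lower, while miR-17-5p, which the same scaling placed above sham, differs from miR-20a by 2 bases and comes from the same precursor. With the miR-19 seed, miR-19b read -0.92 and miR-19a -0.04, a difference between members that differ by 1 base. With the miR-92 seed, miR-25 was lower and miR-92a was not measured. By day 20 the log2 ratios of the miR-17 seed group ran from -0.50 (miR-17-5p) to -0.03 (miR-20a).

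Of 6 seed relatives listed outside the members, 4 were on the array, and miR-20b-5p, miR-363 and miR-92b were below the floor on all 5 arrays. MiR-32, which has the miR-92 seed and lies on chromosome 5, had 72.3, 282, 351 and 499.8 units on TAC days 5, 10, 15 and 20 and 569 units on sham. On TAC day 5 its 72.25 units lay at the floor of 72.06 units and below a stricter floor at 5 scaled MAD (125.4 units). The log2 ratios of miR-32 were -1.06 ± 0.05, -0.67 ± 0.50, -0.54 ± 0.46 and -0.34 ± 0.25, and its day 10 values by block set were -1.50 and 0.15. Each of these directions is for quantile scaling. Beside it, rno-miR-25 of the same seed had its day 5 bound and read -0.41, -0.47 and -0.33 afterwards.

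Of 11 partner strands listed, 10 were on the array and 9 of these were below the floor on all arrays. The partner strand miR-106b* had 96.5, 78, 51 and 62.3 units on TAC days 5 to 20 and 75.5 units on sham, close to the floors. Its log2 ratio was 0.64 ± 0.10 on TAC day 5, when that of the guide strand miR-106b from the same hairpin was -1.32, and 0.21, -0.0069 and -0.22 afterwards. The day 5 value of miR-106b* lay close to the median of 0.56 over the 152 miRNAs measured on both arrays.

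The only fit across arrays took the 4 TAC arrays as 1 group against sham (limma with an intensity trend, 3 residual degrees of freedom), which assumes that the lone sham array varies like them. Of 273 miRNAs above the floor on at least 1 array, 0 (0%) passed an adjusted p of 0.05 after Benjamini-Hochberg adjustment, and 1 had an unadjusted p under 0.05. The 7 members tested had limma adjusted p-values between 0.72 and 0.90, and 6 of the 7 fitted TAC minus sham differences were negative, beside 50.9% of the 273. With spike-in scaling 0 of the 7 and 9 of the 273 were negative. The fit takes every array's value, below the floor or not. MiR-25 read -0.68 ± 0.53, miR-106b -0.69 ± 0.64 and miR-93 -0.72 ± 0.80 in that fit, against 0.14 ± 0.67 for miR-17-5p (SE). None of these differences passed the test.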

How the data were processed

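RNA from rat hearts was measured on 1-colour miRNA arrays of 12312 spots, 1 array per group. Per the file headers, the deposited raw table gives foreground intensity and background-subtracted intensity for each spot, without normalization between arrays. Scanner, image software and background method: not given in the sources used here. A processed table by the authors holds ratios: each probe's median background-subtracted signal divided by 1 constant per array, found from the values. The sham column of the raw table was assigned because the authors' sham values are a constant multiple of its spot medians.

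Background (foreground minus background-subtracted value) was corrected by normexp with an offset of 50, arrays were quantile normalized over the rat miRNA spots, and log2 values of a probe's 4 spots were averaged (limma 3.58.1, R 4.3.3). The offset shrinks ratios of dim probes. The steps were tested on simulated data without a gap between block sets, scored on bright probes only. That test does not cover probes near the floor or the day 10 gap. No member spot was at the ceiling of 65535 units (0 spots). No array test per day was possible. P-values measure only these arrays, and the number of arrays limits precision.

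Named miRNAs were the 9 members, their seed relatives and partner strands above the floor on 2 or more arrays, and the 3 miRNAs closest to each cluster mean. MiR-18b, miR-106a and miR-17-3p were on the list, but no probe carries those names. Members, lists and rules were chosen with earlier results of these data known. Alternatives covered scaling, background correction, spot summary, block set, floor, the authors' ratios, the variance prior and each TAC array left out.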

Additional observations from a re-analysis of the deposited data

Results flagged for a closer look

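With quantile scaling over the rat miRNA spots, miR-17-5p read on opposite sides of sham at different times, with spots that did not overlap the sham spots. Its log2 ratio was 0.51 on TAC day 5 and 0.83 on TAC day 10, against -0.50 on TAC day 20. The day 5 value lay below the median of 0.56 over the 152 miRNAs measured on both arrays, so it was not raised relative to them. With 1 array per time the difference between times was not tested. On day 5 the log2 ratio of miR-17-5p was -0.40 when all probes entered the quantile scaling. With spike-in scaling it was 2.46 on day 5 and 0.18 on day 20, both on the same side of sham.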

How the results depend on the processing

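Of 225 recomputed member ratios, 178 moved by less than the SD over spots. On day 10 this SD includes the gap between block sets, so a ratio could change sign and still be counted. MiR-20a on day 10 was so counted at -1.36 in blocks 1 to 18 and at 1.39 in blocks 19 to 36. The count is therefore no measure of stable direction. The cause of the shifts was not tested. With spike-in scaling the log2 ratio of miR-106b on TAC day 5 was 0.78. Under that scaling 2, 7 and 1 members read 2-fold or more higher on days 5, 10 and 15, with 0 lower on day 5. The median log2 ratio of all miRNAs was then 2.50, 2.03 and 0.91 on these days, so these counts are not particular to the members. With plain background subtraction the cluster difference was -1.54 on day 5 and -2.45 on day 10, 1 member read 2-fold higher on day 10, and 2, 3 and 2 members read lower on days 5, 10 and 15. On day 5, 2 members read lower with median scaling, with quantile scaling over all probes and in the authors' processed values, and 4 with no floor, which admits miR-20a, miR-93 and miR-25. On day 10, 1 member read lower with quantile scaling over all probes and 1 in the authors' processed values, 5 in blocks 1 to 18, and 1 read higher in blocks 19 to 36. On day 15, 2 members read lower in blocks 1 to 18 and 1 in the authors' processed values. Except for the block sets on day 10, the 2-fold shares over all miRNAs were not computed under these alternatives. The counts thus describe the members only. The bounds under other scalings were added after the data were seen. Limma called 0 miRNAs under every alternative run, including each TAC array left out; 45 had an unadjusted p under 0.05 with spike-in scaling and 32 in blocks 1 to 18. No paired analysis was possible because 1 array stands for each group.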

Other observations

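The profile of the miR-106b/25 cluster over the 4 TAC days was closest, by root mean square difference in log2 ratio among 137 other miRNAs above the floor on all 5 arrays, to that of miR-22* (0.096), miR-133a* (0.11) and miR-30c (0.17), where the median miRNA lay 1.28 away. On TAC day 5 that cluster mean includes miR-93 and miR-25, which were below the floor there. On days 10, 15 and 20, with all 3 members above the floor, miR-22* read -0.69, -0.29 and -0.41, beside cluster means of -0.58, -0.28 and -0.31. The mean of all 6 miR-17 to miR-92a probes, of which 3 were below the floor on TAC day 5 and 2 on the other arrays, was closest to miR-345-5p (0.15), miR-145 (0.18) and miR-214 (0.21), with a median distance of 0.96. Values of probes below the floor carry no measured level, so both orders describe these values only. All comparisons share the sham array.

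The partner strand miR-17-1-3p, looked up after the named list showed no probe for miR-17-3p, was above the floor on TAC day 20 alone, with 40 units there and 20.5 units on sham.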
